A study of Saccharomyces cerevisiae with 4 samples.

Results

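The genes described here encode 10 chaperones of budding yeast, Saccharomyces cerevisiae: the Hsp70 proteins SSA1 (YAL005C), SSA3 (YBL075C), SSA4 (YER103W), SSB1 (YDL229W) and SSB2 (YNL209W), the Hsp110 protein SSE1 (YPL106C), the Hsp90 proteins HSP82 (YPL240C) and HSC82 (YMR186W), the small heat shock protein HSP42 (YDR171W) and the mitochondrial Clp-type chaperone HSP78 (YDR258C). They were taken by systematic name from a table of 6301 open reading frames (ORFs). Strain S288c was compared between 12 h in nitrogen-poor minimal medium (MM, ammonium sulfate at 0.025%, neither adenine nor amino acids) and the starting culture in synthetic complete medium (SC, nitrogen-rich, 30 °C, 160 rpm, OD600 of 0.4). Each of the 4 arrays was hybridized with cDNA of both media, reverse transcribed from an oligo-dT primer. By their titles, 2 arrays (replicates 1 and 2) had the MM cDNA in Cy5, and the other 2, numbered likewise, had the SC cDNA in Cy5, with the other medium in Cy3. Medium, time in culture and growth phase change together in this design and cannot be told apart.

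Chaperones bind unfolded proteins and keep them from aggregating. Hsp70 proteins bind short exposed stretches and release them in cycles driven by ATP, which J-proteins start and nucleotide exchange factors, among them the Hsp110 proteins, complete. Hsp90 acts later, on proteins close to their final fold, and small heat shock proteins hold unfolded proteins without using ATP. Yeast has several of these proteins in a form that growing cells make at all times and in a close relative that heat or starvation brings up, mainly through the transcription factors Hsf1, Msn2 and Msn4. By this textbook division SSA3, SSA4, HSP82, HSP42 and HSP78 were taken as stress-induced, and SSA1, SSB1, SSB2, SSE1 and HSC82 as constitutive.

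All values are log2 ratios of MM over SC, so that 1 is a doubling in MM and 0 is no difference. The values carry no statement of their scale. They are centred near 0 and were read as logarithms to base 2, on which every fold given here depends. The direction is not settled by the labels, since the array titles assign the dyes one way and the annotations of the channels the other way. It was taken from the table itself, whose means had the sign stated in the text of the study for MM over SC in 5 of 5 genes, 4 of them inside the runs described next. With the opposite direction every sign below would turn. Of the 10 genes, 7 were measured on all 4 arrays. SSA4 was blank on both arrays of replicate 1, while SSB1 and HSC82 were blank on both arrays of replicate 2. Blank spots made up 5.71% and 7.25% of ORFs on the arrays of replicate 1 and 30.3% and 34.6% on those of replicate 2. In 4 runs of neighbouring ORFs in the table the replicates did not correlate (r = 0.042 across 771 genes, against 0.959 across 2994 genes elsewhere; genes are not independent replicates). None of the 10 genes lay inside a run, but HSC82 is the first ORF after the end of one, YLR421C to YMR185W. The ends of the runs were found from the values, so the side on which HSC82 lies is not certain.

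Of the 5 stress-induced genes 2 passed the test, both higher in MM, and of the 5 constitutive genes 0 passed, with 4 and 3 genes tested. SSA3 rose 7.45-fold and HSP42 rose 1.96-fold, and these were the only genes among the 7 to pass a limma adjusted p of 0.05 over all 3765 genes measured on all 4 arrays. Both were higher in MM, a direction in which 16.5% of all tested genes were called (33.5% in either direction). SSB2 and SSE1 were at 0.66 and 0.68 of their level in SC, with adjusted p of 0.0503 and 0.0672. They passed only without adjustment, as did 24.8% of all genes in that direction. Counted this way, 2 of the 7 genes were higher and 2 lower in MM, where 23.4% of all genes were higher and 48.3% passed in either direction. HSP82, HSP78 and SSA1 passed neither threshold. The mean was above 0 in 3 of the 7 genes (48.5% of all genes), and 5 of the 7 had the same sign on all 4 arrays (59.7% of all genes).

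**Figure D1:**
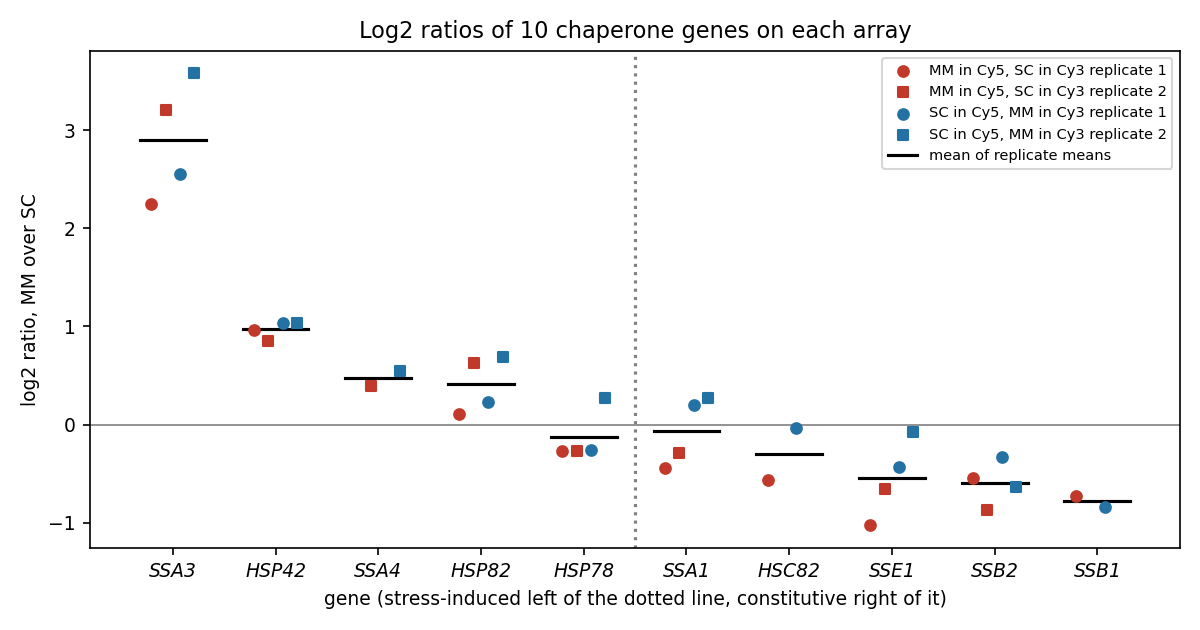
Log2 ratio of MM over SC (vertical axis) of the 10 genes (horizontal axis, stress-induced left and constitutive right of the dotted line), with 1 point per array. Red marks MM in Cy5, blue SC in Cy5, circles replicate 1 and squares replicate 2, and bars are means of the replicate means. SSA3 lies between 2.24 and 3.58 on every array, and all points of SSB2, SSE1, SSB1 and HSC82 lie below 0.

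SSA3, an Hsp70 protein that is scarce in cells growing on rich medium, changed most. With MM in Cy5 its log2 ratio was 2.24 in replicate 1 and 3.21 in replicate 2, and with SC in Cy5 it was 2.56 and 3.58. All 4 arrays were far above 0, and both arrays of replicate 2 lay above both arrays of replicate 1. The mean was 2.90 ± 0.70 (SD, n = 2 replicates; 95% interval 1.97 to 3.82; limma adjusted p 0.0166). It stood in place 18 of 3765 genes from the highest log2 ratio down.

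HSP42, a small heat shock protein that gathers unfolded proteins into deposits, varied least. Its log2 ratios were 0.97 and 0.86 with MM in Cy5 and 1.04 and 1.03 with SC in Cy5, so that the 4 arrays lay close together. The mean was 0.97 ± 0.041 (SD, n = 2; limma adjusted p 0.0154). The calls of SSA3 and HSP42 held without any 1 of the 4 arrays, but neither held in a test without moderation of the variance (adjusted p 0.257 and 0.195), where no gene passed.

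HSP82, the Hsp90 protein that heat brings up, was higher in MM on every array, at 0.11 and 0.62 with MM in Cy5 and at 0.22 and 0.69 with SC in Cy5. Replicate 2 was again above replicate 1 in both dye orientations. The mean of 0.41 ± 0.35 (SD, n = 2) did not pass, with an adjusted p of 0.154 by limma and a 95% interval from -0.11 to 0.93. Taking the 4 arrays as independent gave an adjusted p of 0.0450, and leaving out single arrays 0.137 to 0.224. With the replicate number as a block the limma adjusted p was 0.0346. With the runs left out it was 0.0016, in a fit where limma gave all genes 1 common variance.

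SSA4, the Hsp70 protein most strongly brought up by heat, had values in replicate 2 only, 0.39 with MM in Cy5 and, where SC was in Cy5, 0.55. Its mean of 0.47 rests on 1 replicate and has no test. On the same arrays SSA3 was at 3.21 and 3.58, so the 2 stress-induced SSA genes, both higher in MM there, differed widely in size.

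HSP78, which works with mitochondrial Hsp70 to dissolve aggregates in the matrix, was at -0.27 on both arrays with MM in Cy5, and at -0.26 and 0.27 with SC in Cy5. Only 1 array was above 0, that of replicate 2. The mean was -0.13 ± 0.19 (SD, n = 2; limma adjusted p 0.434), and its 95% interval of -0.50 to 0.24 leaves out a doubling in MM. Of the stress-induced genes it was the one whose mean lay below 0, and without MM in Cy5 replicate 2 that mean was 0.0039.

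Among the constitutive genes, SSB1 and SSB2 encode Hsp70 proteins bound to ribosomes, which receive new chains as they leave the exit tunnel. SSB2 was below 0 on every array, at -0.54 and -0.87 with MM in Cy5 and at -0.33 and -0.63 with SC in Cy5. The mean was -0.60 ± 0.22 (SD, n = 2), and the 95% interval ran from -0.99 to -0.20. Its adjusted p of 0.0503 by limma lay just over the threshold. It was 0.0457 when each array was centred on its median and 0.0618 over genes with at least 1 array in each replicate. Without single arrays it ran from 0.0445 (without SC in Cy5 replicate 1) to 0.109 (without MM in Cy5 replicate 2). SSB1 had values in replicate 1 only, -0.73 with MM in Cy5 and, where SC was in Cy5, -0.84, lower on each of these arrays than SSB2. The paralogs are nearly identical, and spots of whole ORFs may bind the transcripts of both, which was not tested.

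SSE1 encodes an abundant nucleotide exchange factor of the cytosolic Hsp70 proteins, a role that SSE2, FES1 and SNL1 share. It was below 0 on every array, at -1.03 and -0.65 with MM in Cy5 and at -0.44 and -0.079 with SC in Cy5, so the arrays of the first orientation were the lower ones. The mean was -0.55 ± 0.26 (SD, n = 2; 95% interval -0.98 to -0.12; limma adjusted p 0.0672). With the arrays taken as independent, SSE1 and SSB2 passed, at adjusted p of 0.0334 and 0.00773. Both also passed by limma with the replicate number as a block (adjusted p 0.0187 and 0.00454). With the runs left out, where limma gave all genes 1 common variance, they were at 2.0e-05 and 3.4e-06. Without single arrays the adjusted p of SSE1 ran from 0.0388 (without SC in Cy5 replicate 2) to 0.278 (without MM in Cy5 replicate 2).

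HSC82, the constitutive Hsp90 protein, was measured in replicate 1 only, at -0.56 with MM in Cy5 and, where SC was in Cy5, -0.039. Both values were below 0, but they differed by more than the mean of -0.30, which has no test. SSA1, a constitutive Hsp70 protein of the cytosol that heat raises further, was at -0.44 and -0.29 with MM in Cy5 and at 0.20 and 0.27 with SC in Cy5. Its sign followed the dye and not the replicate, as in 5.34% of all genes, and the mean of -0.066 ± 0.080 (SD, n = 2) did not differ from 0 (limma adjusted p 0.616).

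In the order of their means the genes ran SSA3, HSP42, SSA4, HSP82, SSA1, HSP78, HSC82, SSE1, SSB2 and SSB1. The gap of 1.92 between SSA3 and HSP42 was larger than their combined SD of 0.70. That of 0.48 between HSP82 and SSA1 was larger than 0.35. SSA1 and HSP78, 0.066 apart, and SSE1 and SSB2, 0.047 apart, did not differ beyond combined SDs of 0.21 and 0.34. For the other neighbours at least 1 gene had a single replicate, and no such comparison could be made. The place of SSA4 above HSP82 sets replicate 2 alone against both replicates. On the arrays of replicate 2 HSP82 was the higher one. It was at 0.62 against 0.39 with MM in Cy5, and at 0.69 against 0.55 with SC in Cy5.

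Set against each other as classes, the 5 stress-induced genes had a median of 0.47 and the 5 constitutive genes a median of -0.55 on the log2 scale, and the median of all 3765 tested genes was -0.019. Over genes measured on all 4 arrays the medians were 0.69 for 4 stress-induced and -0.55 for 3 constitutive genes. With MM in Cy5 no stress-induced gene was as low as any constitutive one, in 20 of 20 pairs in replicate 1 and 15 of 15 in replicate 2. The gap between HSP78, the lowest stress-induced gene, and SSA1, the highest constitutive one, was 0.17 and 0.022 on these arrays. With SC in Cy5 the classes overlapped, and the stress-induced gene was higher in 18 of 20 and 14 of 15 pairs. The exceptions were HSP78 against SSA1 and HSC82 in replicate 1 and HSP78 against SSA1 in replicate 2, where both stood at 0.27. The pairs cross the same few genes and are not separate observations. How often other sets of genes part in this way was not counted. The classes were set with earlier results of these data known, so their separation is a description only.

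Differences between relatives were taken within each array, where the centring of the array drops out, for 5 pairs. SSA3 exceeded SSA1 by 2.69 and 3.50 with MM in Cy5 and by 2.36 and 3.30 with SC in Cy5. The mean difference was 2.96 ± 0.62 (SD, n = 2), positive on 4 of 4 arrays. An exact sign-flip test over 2 replicates (two-sided) gave p = 0.5, the smallest p that this design allows. SSA4 exceeded SSA1 by 0.68 with MM in Cy5 and by 0.27 with SC in Cy5, both in replicate 2. For the Hsp90 pair, HSP82 exceeded HSC82 by 0.67 with MM in Cy5 and by 0.26 with SC in Cy5, both in replicate 1. These 2 differences have the same direction in both orientations but rest on 1 replicate each, and similar ORFs, HSP82 with HSC82 and the SSA genes with one another, may share signal, which was not tested. SSB1 lay below SSB2 by 0.18 with MM in Cy5 and, where SC was in Cy5, 0.51.

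The fifth pair adds SSE2 (YBR169C), the stress-induced relative of SSE1. SSE2 was at 0.39 and 0.46 with MM in Cy5 and at 0.87 and 1.03 with SC in Cy5, above 0 on all 4 arrays, with a mean of 0.69 ± 0.081 (SD, n = 2; limma adjusted p 0.0253). Its call was lost when any 1 array other than MM in Cy5 replicate 1 was left out, with adjusted p from 0.0617 to 0.0715. SSE2 over SSE1 had a narrower spread than SSA3 over SSA1, the only other pair measured on 4 arrays. The difference of SSE2 over SSE1 was 1.42 and 1.11 with MM in Cy5 and 1.30 and 1.11 with SC in Cy5. Its mean was 1.24 ± 0.18 (SD, n = 2; exact sign-flip p = 0.5, the smallest possible). SSE1 and SSE2 each varied with the dye, by -0.58 and -0.52 (MM in Cy5 minus SC in Cy5), and this shift drops out of their difference.

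**Figure D2:**
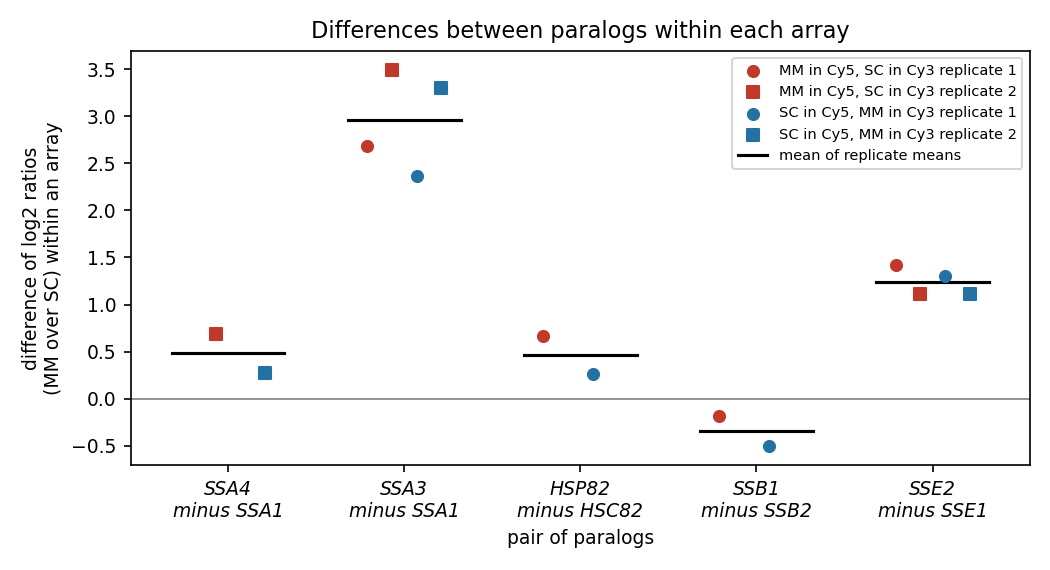
Difference of the log2 ratios (MM over SC) of 2 related genes within each array (vertical axis) for the 5 pairs (horizontal axis). Red marks MM in Cy5, blue SC in Cy5, circles replicate 1 and squares replicate 2, and bars are means of the replicate means. The 4 pairs of a stress-induced with a constitutive gene lie above 0 on each array that measured both, and SSB1 minus SSB2 lies below 0 on its 2 arrays.

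The dye orientation moved some genes by more than their mean change, SSA1, SSE1 and HSP78 among those measured on all 4 arrays. All 7 genes measured on all 4 arrays had a lower mean log2 ratio with MM in Cy5 than with SC in Cy5, as did 60.3% of all 3765 genes. The difference of the orientations was -0.60 for SSA1, -0.58 for SSE1, -0.34 for SSA3, -0.28 for HSP78, -0.23 for SSB2, -0.12 for HSP42 and -0.090 for HSP82. Its median over all genes was -0.083, and its median size was 0.22. HSC82, with a difference of -0.52 on 2 arrays, resembled SSA1 and SSE1, and SSB1 went the other way, at 0.11. In a limma fit with a dye term, over the 4 arrays taken as independent, 0 of the 7 genes passed an adjusted p of 0.05 (0.0266% of all genes did). At an unadjusted p of 0.05, 1 of them passed, SSA1 at 0.0183 (8.21% of all genes did). With a term for the replicate number added to the limma fit, 2 passed unadjusted, SSA1 at 0.0102 and SSE1 at 0.0127, and 0 adjusted. The share of all genes was not taken for that fit.

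**Figure D3:**
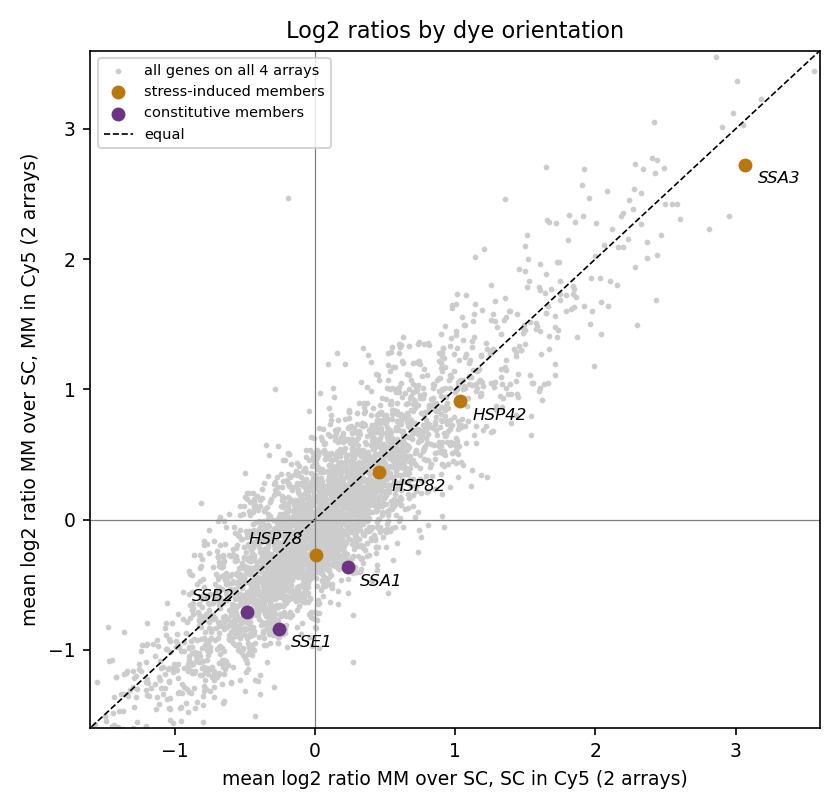
Mean log2 ratio of MM over SC with MM in Cy5 (vertical axis) against that with SC in Cy5 (horizontal axis), 2 arrays each, for the 7 genes measured on all 4 arrays (orange stress-induced, purple constitutive) and for all tested genes (grey; 145 of them lie outside the plotted range). The 7 genes lie below the dashed line of equal values, and SSA1 lies at -0.37 on the vertical and 0.23 on the horizontal axis.

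Other chaperones, their partners and regulators were followed in 7 lists of 70 genes in all, of which 46 were measured on all 4 arrays. In the counts of these lists, measured means on all 4 arrays. Of the 46, 11 were called higher and 8 lower in MM (limma adjusted p at or under 0.05; 16.5% and 17.0% of all genes were). Their median log2 ratio was 0.038. Among cytosolic partners of Hsp70, 3 of 9 were called higher and 1 lower. APJ1 (YNL077W), a J-protein of the nucleus and cytosol, rose by 1.69 ± 0.29, and SSZ1 (YHR064C), an Hsp70-like protein that sits on the ribosome and works with SSB1 and SSB2, fell by 0.70 ± 0.16 (SD, n = 2; limma adjusted p 0.0142 and 0.0308). SSZ1 was at -0.92 and -0.85 with MM in Cy5 and at -0.71 and -0.32 with SC in Cy5, below 0 on all 4 arrays, as was SSB2. Without MM in Cy5 replicate 2 its adjusted p was 0.136. FES1 (YBR101C), an exchange factor as SSE1 is, rose by 0.82 ± 0.18 (SD, n = 2; limma adjusted p 0.0253). It was at 0.98 and 1.54 with MM in Cy5 and at 0.41 and 0.35 with SC in Cy5, and its call was lost without any 1 array other than SC in Cy5 replicate 1 (adjusted p 0.0567 to 0.132). SSA2 (YLL024C), the other constitutive SSA protein, was at -0.17 ± 0.071 (SD, n = 2; adjusted p 0.259) but lies inside one of the runs.

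Of 9 measured co-chaperones of Hsp90, 2 were called higher and 1 lower (16.5% and 17.0% of all genes were). The list median was -0.017. STI1 (YOR027W), which links Hsp70 to Hsp90, was at 0.82 and 0.87 with MM in Cy5 and at 1.05 and 0.81 with SC in Cy5. No array stood apart, and the mean was 0.89 ± 0.068 (SD, n = 2; limma adjusted p 0.0174), larger than that of HSP82 itself at 0.41. PPT1 (YGR123C), a phosphatase that acts on Hsp90, fell by 0.53 ± 0.12 (SD, n = 2; limma adjusted p 0.0411), a call lost without any 1 array other than SC in Cy5 replicate 2 (adjusted p 0.0588 to 0.198).

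A list of 4 further heat shock proteins held HSP104, HSP26, HSP12 and HSP31, of which 3 were called higher (16.5% of all genes were). The list median was 1.70 (2.18 without HSP104). HSP12 (YFL014W), a membrane-associated hydrophilin, rose by 2.18 ± 0.29, and HSP31 (YDR533C), of the DJ-1 family, rose by 1.21 ± 0.20 (SD, n = 2; limma adjusted p 0.0106 and 0.0162). Neither is a small heat shock protein of the kind of HSP42. HSP26 (YBR072W), the other small heat shock protein of the cytosol, rose by 2.30 ± 0.19 (SD, n = 2; limma adjusted p 0.00864), against 0.97 for HSP42. It was at 2.63 and 2.41 with MM in Cy5 and at 1.71 and 2.46 with SC in Cy5. HSP104 (YLL026W), the disaggregase of the cytosol and relative of HSP78, went opposite ways in the replicates. It was at -1.06 in replicate 1 and 1.28 in replicate 2 with MM in Cy5, and at -0.77 and 2.00 with SC in Cy5. It lies inside a run where replicates do not correlate, and its mean of 0.36 ± 1.81 (SD, n = 2; limma adjusted p 0.722) gives no direction.

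In the mitochondria 1 of 4 genes measured on all 4 arrays was called higher and none lower by limma (1 higher and 1 lower without adjustment). Another 8 genes of this list had values on 1 to 3 arrays and were not tested. Over all genes 16.5% were called higher and 17.0% lower, and without adjustment 23.4% and 24.8%. The called gene was HSP10 (YOR020C), the lid of the Hsp60 chamber, at 0.57 ± 0.039 (SD, n = 2; limma adjusted p 0.0313). Its 2 arrays with MM in Cy5 were at 0.89 and 1.13 and those with SC in Cy5 at 0.19 and 0.066, so most of its size came from 1 orientation. Without either array with MM in Cy5, or without SC in Cy5 replicate 2, it was no longer called (adjusted p 0.0608 to 0.334), nor was it with the 4 arrays taken as independent (0.0575). SSC1 (YJR045C), the mitochondrial Hsp70 that works with HSP78, had values in replicate 1 only. These were -0.45 with MM in Cy5 and, where SC was in Cy5, 0.34, again split by the dye.

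In the endoplasmic reticulum 2 of 7 measured genes were called higher and 1 lower (16.5% and 17.0% of all genes were). PDI1 (YCL043C), which forms disulfide bonds, was at 0.78 ± 0.33 and SCJ1 (YMR214W), a J-protein of that compartment, fell by 0.80 ± 0.21 (SD, n = 2; limma adjusted p 0.0469 and 0.0292). The call of PDI1 was lost without any 1 of the 4 arrays (adjusted p 0.0528 to 0.0937) and with arrays centred on the median (0.0613), and that of SCJ1 without MM in Cy5 replicate 2 (0.158).

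Of the chamber-forming CCT complex and of prefoldin, which fold actin and tubulin, 0 of 11 measured genes were called higher and 5 lower by limma (1 higher and 8 lower without adjustment). Over all genes 16.5% were called higher and 17.0% lower, and without adjustment 23.4% and 24.8%. The list median was -0.48. The means of all 7 CCT subunits measured on all 4 arrays lay between -0.92 and -0.32, and 4 of them were called. CCT2, CCT3 and CCT8, not called, each had 1 array above 0. CCT7 had values on 2 arrays only, -1.01 with MM in Cy5 and, where SC was in Cy5, -0.57. CCT6 (YDR188W) fell most, by 0.92 ± 0.050 (SD, n = 2; limma adjusted p 0.0162), at -1.09 and -1.07 with MM in Cy5 and at -0.69 and -0.85 with SC in Cy5. These subunits and SSB2, SSZ1 and SSE1 were thus below 0 in their means, while prefoldin was split, with 2 of 4 measured subunits above 0.

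Of 3 regulators 2 were tested, HSF1 and MSN4, and neither passed. HSF1 (YGL073W) was at 0.072 ± 0.16 (SD, n = 2; limma adjusted p 0.638). MSN4 (YKL062W) was at 1.00 in replicate 1 and -0.93 in replicate 2, inside a run, and MSN2 (YMR037C), also inside a run, was at -0.59 in replicate 1 only and was not tested.

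**Figure D4:**
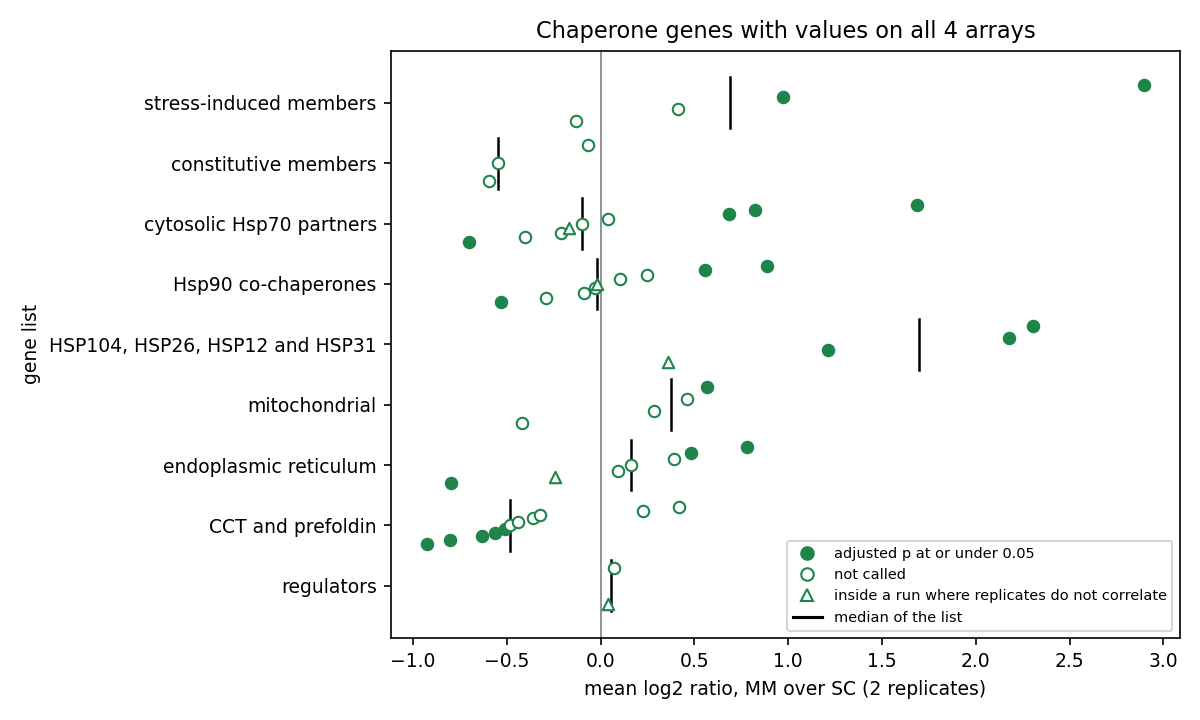
Mean log2 ratio of MM over SC (horizontal axis, 2 replicates) of chaperone genes measured on all 4 arrays, by list (vertical axis), with 1 symbol per gene and a bar at the median of the list. Filled symbols had a limma adjusted p at or under 0.05 and triangles lie inside runs where replicates do not correlate. Median values are 0.69 for the stress-induced and -0.55 for the constitutive genes, 1.70 for HSP104, HSP26, HSP12 and HSP31 and -0.48 for CCT and prefoldin.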

How the data were processed

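Arrays of spotted ORF products were scanned and gridded by the authors with GenePix, who subtracted background from foreground and normalized mean by mean over well measured spots, those over the background by 3 SDs of its pixels. The deposited values, 1 per ORF and array, were read as log2 ratios, since base and direction are not stated with them. Other spots are blank. Precision is limited by there being only 4 arrays. Per the labels 2 µg of mRNA were primed. No genome build is named, so no coordinates are given. Symbols came from the RefSeq table of assembly R64, which matched 5801 of 6301 ORFs.

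Arrays sharing a replicate number were averaged to 1 replicate (n = 2). Genes on all 4 arrays were fitted in limma 3.58.1 (R 4.3.3; lmFit, eBayes) against 0, two-sided, with Benjamini-Hochberg adjustment over 3765 genes, called at 0.05. The fit was tested on simulated data, which held no runs where replicates do not correlate. That test therefore does not show how the fit behaves with such runs. The Bayesian program of the study was not used. By the methods of the study each replicate had its own reverse transcription. Whether replicates were separate cultures is stated only in the series text ("biological"). If they were not, SDs, intervals and p-values measure the spread between these arrays.

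Members, classes, runs and lists were chosen with earlier results of these data known. Named genes are the 10 members, SSA2, SSE2, HSP104, HSP26, HSF1, MSN2 and MSN4, and, per list, whichever called gene moved furthest up and furthest down. SSC1, FES1, HSP12, HSP31 and SNL1 were named after their values were seen. A planned promoter search was not run.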

Additional observations from a re-analysis of the deposited data

Results flagged for a closer look

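SSA1 (YAL005C) was picked out because its log2 ratio was below 0 on both arrays with MM in Cy5 (-0.44 and -0.29) and above 0 on both arrays with SC in Cy5 (0.20 and 0.27), although all 4 arrays compare the same media. The mean with MM in Cy5 less that with SC in Cy5 was -0.60, and 5.34% of all 3765 genes had opposite signs in this way. The dye term of SSA1 had an unadjusted limma p of 0.0183 and an adjusted p of 0.568. Groups of 2 arrays are too small for a test of outlying samples.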

How the results depend on the processing

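SSA3 and HSP42 were called among the members in 9 of the 10 alternatives. The number of members called was 5 with the arrays as independent, 5 with the replicate block and 5 with the runs left out, where SSB2, SSE1 and HSP82 joined them, 0 with no moderation, and 2 to 3 without single arrays. Over all genes 1744 of 3765 were called with the arrays as independent, 1979 with the replicate block and 1263 in the main fit. Without single arrays 570 to 1026 of the 3765 were called, and 0 with no moderation. With the runs left out 1920 of 2994 were called, and limma gave all genes 1 common variance. With no moderation 1 of the 7 tested members passed at the unadjusted p, for which the share of all genes was not taken. Of the 46 other chaperones 19 were called in the main fit, 0 with no moderation and 7 to 13 without single arrays. With the runs left out, which removes 5 of the 46, 30 were called. Same-numbered arrays deviated together at r = 0.71 over all genes, 0.044 outside and 0.91 inside the runs, so the pairing rests on the number alone outside them. The block correlation was -0.24.

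Without single arrays SSA1 was at 0.094 and 0.075 (without MM in Cy5 replicate 1 or 2), HSP78 at 0.0039 (without MM in Cy5 replicate 2) and MSN4 at -0.18 (without SC in Cy5 replicate 2), the reverse of their signs. Over the 4 fits that leave out an array, SSA1 ran from -0.23 to 0.094, HSP78 from -0.27 to 0.0039 and MSN4 from -0.18 to 0.25. The median of the stress-induced genes was 0.69 over those with both replicates and 0.39 to 0.55 without single arrays, and that of the constitutive genes -0.66 to -0.40. The difference of SSA4 over SSA1 was 0.27 to 0.68, that of HSP82 over HSC82 0.26 to 0.67 and that of SSB1 over SSB2 -0.51 to -0.18. No member had a called dye term under any alternative run, with 0 to 2 at an unadjusted p of 0.05 by limma. The causes of these changes were not tested. Signal over background is not part of the values, so weak spots could not be told from strong ones.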
